A study of Rattus norvegicus with 13 samples.

Results

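The genes described here mark blood and the leukocytes that live in the kidney: Hbb and Alas2 for red cells, Pf4 for platelets, Cd3d for T cells, Cd68 for macrophages, and Laptm5, Ptprc and Cd53 for leukocytes in general. They were chosen by symbol, and every probe set whose only platform symbol is one of these 8 genes was taken, which gave 9 probe sets. The array held 10411 genes with a probe set of 1 symbol, and 15923 probe sets in all. RNA came from glomeruli, the capillary tufts that filter blood, of untreated Lewis-Hsd rats aged 18 weeks on a regular diet, and was measured on Affymetrix Rat 230A arrays. In the group called LCM20 (n = 4 arrays, titled LCM 20) and the group called LCM800 (n = 5, titled LCM 800), glomeruli were taken from sections 10 µm thick by laser capture microdissection (LCM), in which a laser lifts chosen areas out of a tissue section. Both carried RNA through 2 rounds of amplification. In the sieved group (n = 4, titled iron), iron oxide particles were perfused into a kidney through the aorta and its glomeruli were collected by sieve and magnet, at a purity over 99% by phase contrast microscopy, without amplification. The opposite kidney, whose artery was clamped against the particles, supplied the microdissected glomeruli.

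About 800 glomerular cross-sections are given in the protocol text of both LCM groups, and what the 20 in the titles stands for is not stated. The titles call the arrays biological replicates but do not tie a replicate number to a rat, so p-values measure the spread between these arrays. The extraction text of the sieved samples also names anti-Thy1.1 rats although all samples are given as untreated, and the description field speaks of embryos, against the other fields. Perfusion, isolation and amplification all differ between the LCM and sieved groups, so their parts in any difference cannot be told apart.

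Red cells carry oxygen on haemoglobin, a tetramer of α and β globin chains with haem groups. Young red cells leaving the marrow, the reticulocytes, still hold globin RNA, and platelets likewise carry RNA made in the megakaryocyte. Healthy kidney holds resident macrophages, dendritic cells and few T cells, mostly in the interstitium around tubules and glomeruli, while the glomerular capillaries contain whatever blood was left in them. In bulk RNA, fewer cells of a type and less RNA per cell cannot be told apart.

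Promoter windows from RefSeq, build GRCr8, were found for 7 of the 8 genes. The 3 shown belong to Hbb, whose signal varied most between LCM arrays, to Laptm5, with the smallest adjusted p of the 8 genes in both comparisons with the sieved group, and to Cd68, with the smallest unadjusted p of the 8 genes between LCM20 and LCM800. Each runs 5′ to 3′ through the 250 bases before the gene start in the table. Capitals mark CACCC, a short run known from globin promoters, in Hbb (chr1:167663722-167663971, minus strand). Capitals mark GGAAGT, a run known as a core bound by ETS factors such as PU.1 of myeloid cells, in Laptm5 (chr5:148371630-148371879, plus strand) and in Cd68 (chr10:54882442-54882691, minus strand).
Hbb: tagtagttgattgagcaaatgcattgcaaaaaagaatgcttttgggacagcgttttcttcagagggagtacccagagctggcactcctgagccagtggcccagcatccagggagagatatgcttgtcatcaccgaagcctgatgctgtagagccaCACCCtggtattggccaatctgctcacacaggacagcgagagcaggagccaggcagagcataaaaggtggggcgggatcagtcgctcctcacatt
Laptm5: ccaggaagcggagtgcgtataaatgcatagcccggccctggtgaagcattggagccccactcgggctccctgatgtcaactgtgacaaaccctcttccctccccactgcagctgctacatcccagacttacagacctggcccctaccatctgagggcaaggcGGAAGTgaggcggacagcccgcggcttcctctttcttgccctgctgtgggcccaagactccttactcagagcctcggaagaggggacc
Cd68: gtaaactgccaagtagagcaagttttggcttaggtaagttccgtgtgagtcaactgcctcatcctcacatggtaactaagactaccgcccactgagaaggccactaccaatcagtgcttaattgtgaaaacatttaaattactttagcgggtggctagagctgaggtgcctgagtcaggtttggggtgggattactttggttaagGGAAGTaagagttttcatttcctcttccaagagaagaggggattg
Over both strands, CACCC was in 49.2%, GATAA in 23.5% and GGAAGT in 19.2% of all 33469 windows of this length. GATAA was searched as the core bound by GATA1, and among the 7 genes only the Alas2 window held it, with 1 match; GGAAGT was also in the Ptprc, Cd53 and Cd3d windows. CACCC was not particular to the globin gene: the Cd68 window shown held 2 matches, left in lower case, the Cd53 window held 2, and the Alas2 window held none. The table's start lies 4800 bases inside the gene for Alas2 and 946 bases inside it for Cd3d, so those windows may not be the promoter of the main transcript. The motifs and the windows shown were chosen with the sequences in view, and a match is no evidence of binding.

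Values are linear MAS5 signals in intensity units, and their precision is limited by how many arrays there were. A change is the difference between group means of log2(signal + 65.3), with its SE from limma after the ± sign, where 65.3 is the 20th percentile of all signals. They understate the ratio of signals for dim genes. A gene was called when its adjusted p was under 0.05 over the 11106 probe sets tested. The median signal per array ran between 236 and 321. The 3′ minus 5′ difference of the β-actin probe sets, a sign of how far cDNA reaches from the tail of the RNA, was 1.80 ± 0.45 in LCM20, 2.77 ± 1.03 in LCM800 and 0.55 ± 0.02 in sieved arrays, in log2 units (SD). LCM800 replicates 1, 2 and 3, at 2.80, 3.54 and 4.01, stood apart from replicates 4 and 5, at 1.78 and 1.71, and the first principal component of the LCM800 arrays separated the same arrays. Sieved replicate 3 also stood apart, with a mean correlation of 0.89 with the other sieved arrays. For each of the other sieved arrays the same mean, which takes in replicate 3, was 0.94 to 0.95. Of 12 proximal tubule genes, 11 were lower in LCM20 and 11 were lower in LCM800 than in sieved glomeruli, with median changes of -3.35 and -3.12. Their summed signal was 20921 to 41366 in LCM20, 24278 to 52513 in LCM800 and 58565 to 118588 in sieved arrays. The lowest sieved array was replicate 3. The remaining gene, Pck1, was called higher in LCM800, at 1.07 ± 0.29 (limma adjusted p = 0.00559). In LCM20 Pck1 was not called, at 0.55 ± 0.30 (limma adjusted p = 0.143). Its mean signal was 16620 in LCM20, 23680 in LCM800 and 10957 in sieved arrays, so it made up much of the LCM sums. The part of tubule RNA or of cDNA length in the results below was not tested.

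Compared with sieved glomeruli, microdissected glomeruli had higher signals for the haem enzyme gene Alas2, the platelet chemokine gene Pf4, the T cell gene Cd3d and the leukocyte gene Laptm5 in both LCM groups, and for the macrophage gene Cd68 in LCM800. In LCM20 4 of the 8 genes were called higher, where 27.0% of all 8081 genes tested were, and none was called lower, against 18.5% of all genes. In LCM800 5 were called higher, where 32.3% of all genes were, and none lower, against 19.8% of all genes. The median change of the 8 genes was 0.96 in LCM20 and 1.10 in LCM800, against medians of 0.18 and 0.22 over all genes. All 8 genes passed the filter on dim probe sets. Both comparisons share the sieved arrays and are not independent. The plot of the changes sets them side by side.

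**Figure D1:**
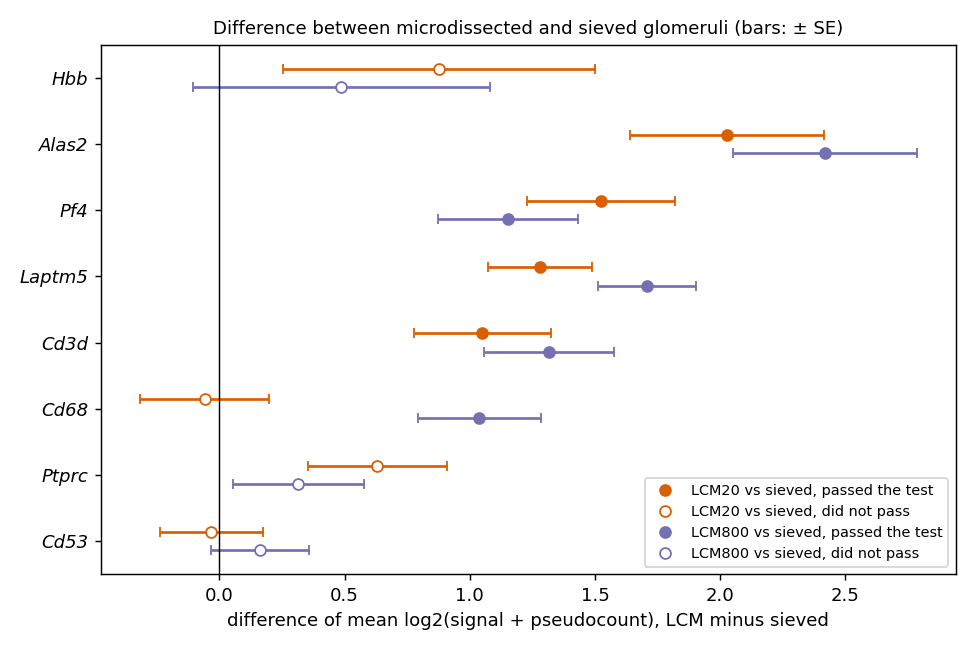
Change of each gene between LCM and sieved glomeruli, as the difference of mean log2(signal + 65.3) on the horizontal axis. Orange stands for LCM20 against sieved and purple for LCM800 against sieved; filled points passed the limma test at an adjusted p under 0.05, open points did not, and bars are ± 1 SE. Alas2, Pf4, Laptm5 and Cd3d lie to the right of 1 in both colours, and Cd68 does so in purple at 1.04 but not in orange at -0.06.

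Among the red cell genes, Hbb, which encodes β globin, gave 261, 1311, 565 and 2882 intensity units on LCM20 replicates 1 to 4, against 606, 445, 458 and 344 on the sieved replicates. The LCM800 replicates 1 to 5 gave 120, 1428, 576, 1233 and 829 units. Replicates lay far apart within each LCM group, with LCM20 replicate 4 the highest array and LCM800 replicate 1 the lowest, and both LCM ranges reached below and above the sieved range. The highest array was 11.03 times the lowest in LCM20 and 11.89 times in LCM800, against 1.76 times among sieved arrays. The Hbb change was 0.88 ± 0.62 in LCM20 (limma adjusted p = 0.262) and 0.49 ± 0.59 in LCM800 (limma adjusted p = 0.505), and neither passed. Single arrays moved these values: the LCM20 change was 0.34 without LCM20 replicate 4 and 1.39 without LCM20 replicate 1, and the LCM800 change was 0.98 without LCM800 replicate 1, 0.23 without replicate 2 and 0.28 without replicate 4. None of these passed, with limma adjusted p between 0.0781 and 0.773. The probe set for Hbb is of the kind Affymetrix marks as able to bind related transcripts, so other β globin genes may share its signal.

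Alas2 encodes the erythroid enzyme that starts haem synthesis. It gave 155, 548, 210 and 788 units on the LCM20 arrays and 327, 746, 304, 630 and 571 on the LCM800 arrays, against 39.8, 80.6, 19.5 and 23.1 on the sieved arrays. All LCM arrays lay above all sieved arrays, and 3 of the 4 sieved values were below the 20th percentile of all signals, where signals are dim. Alas2 was higher by 2.03 ± 0.39 in LCM20 (limma adjusted p = 0.000615) and by 2.42 ± 0.37 in LCM800 (limma adjusted p = 7.09e-05). Hbb did not pass where Alas2 did, and whether their changes differ was not tested.

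Pf4 encodes platelet factor 4, a chemokine stored in platelet α granules. It gave 313, 478, 276 and 789 units in LCM20 and 194, 459, 271, 433 and 293 in LCM800, against 95.2, 74.4, 161 and 107 in sieved arrays. Neither LCM group overlapped the sieved group, with the lowest LCM800 array above the highest sieved array. Pf4 was higher by 1.52 ± 0.30 in LCM20 (limma adjusted p = 0.000707) and by 1.15 ± 0.28 in LCM800 (limma adjusted p = 0.00307).

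Cd3d encodes the δ chain of the CD3 complex, which carries the signal of the T cell receptor into the cell. It gave 332, 125, 183 and 192 units in LCM20 and 171, 266, 168, 345 and 364 in LCM800, against 55.7, 75.9, 35.4 and 87.8 in sieved arrays. All LCM arrays were above all sieved arrays, 2 of which were below the 20th percentile of all signals. Cd3d was higher by 1.05 ± 0.27 in LCM20 (limma adjusted p = 0.00579) and by 1.32 ± 0.26 in LCM800 (limma adjusted p = 0.000649).

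Cd68 encodes a lysosomal membrane glycoprotein abundant in macrophages. It gave 143, 124, 95.1 and 313 units in LCM20 and 548, 424, 282, 350 and 482 in LCM800, against 143, 170, 193 and 157 in sieved arrays. The LCM800 arrays all lay above the sieved arrays, while LCM20 replicates 2 and 3 lay below the lowest sieved array, replicate 1 was level with it, and replicate 4 lay above the highest. Cd68 was higher by 1.04 ± 0.25 in LCM800 (limma adjusted p = 0.00246), against -0.06 ± 0.26 in LCM20 (limma adjusted p = 0.868).

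Laptm5 encodes a lysosomal protein of blood-forming cells that takes part in turnover of antigen receptors. It gave 501, 495, 572 and 631 units in LCM20 and 630, 651, 962, 978 and 647 in LCM800, against 148, 185, 257 and 170 in sieved arrays. Every LCM array was above every sieved array, and the replicates of each group lay close together. Laptm5 was higher by 1.28 ± 0.21 in LCM20 (limma adjusted p = 0.000165) and by 1.71 ± 0.20 in LCM800 (limma adjusted p = 6.45e-06).

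Ptprc encodes CD45, the tyrosine phosphatase on the surface of all nucleated blood cells. Its brighter probe set gave 250, 176, 238 and 166 units in LCM20 and 128, 102, 72.2, 253 and 276 in LCM800, against 91.6, 107, 115 and 125 in sieved arrays. All LCM20 arrays lay above the sieved arrays, and LCM800 replicates 1, 4 and 5 lay above them, replicate 1 by a small margin, while replicates 2 and 3 did not. The Ptprc change was 0.63 ± 0.28 in LCM20 (limma adjusted p = 0.0728) and 0.32 ± 0.26 in LCM800 (limma adjusted p = 0.323). In LCM20 it passed in the fit of those groups alone, at 0.63 (limma adjusted p = 0.0192), and with arrays weighted by their agreement, at 0.72 (limma adjusted p = 0.0115). Those 2 fits called 50.5% and 57.8% of all probe sets between LCM20 and sieved, against 45.3% in the main fit. The other Ptprc probe set was between 7.78 and 37.0 units on all 13 arrays and did not pass the filter.

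Cd53 encodes a tetraspanin, a membrane protein that organises receptors on leukocytes. It gave 312, 174, 233 and 212 units in LCM20 and 241, 249, 230, 381 and 277 in LCM800, against 217, 196, 299 and 240 in sieved arrays. The groups overlapped throughout. The Cd53 change was -0.03 ± 0.21 in LCM20 (limma adjusted p = 0.909) and 0.16 ± 0.20 in LCM800 (limma adjusted p = 0.497).

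**Figure D2:**
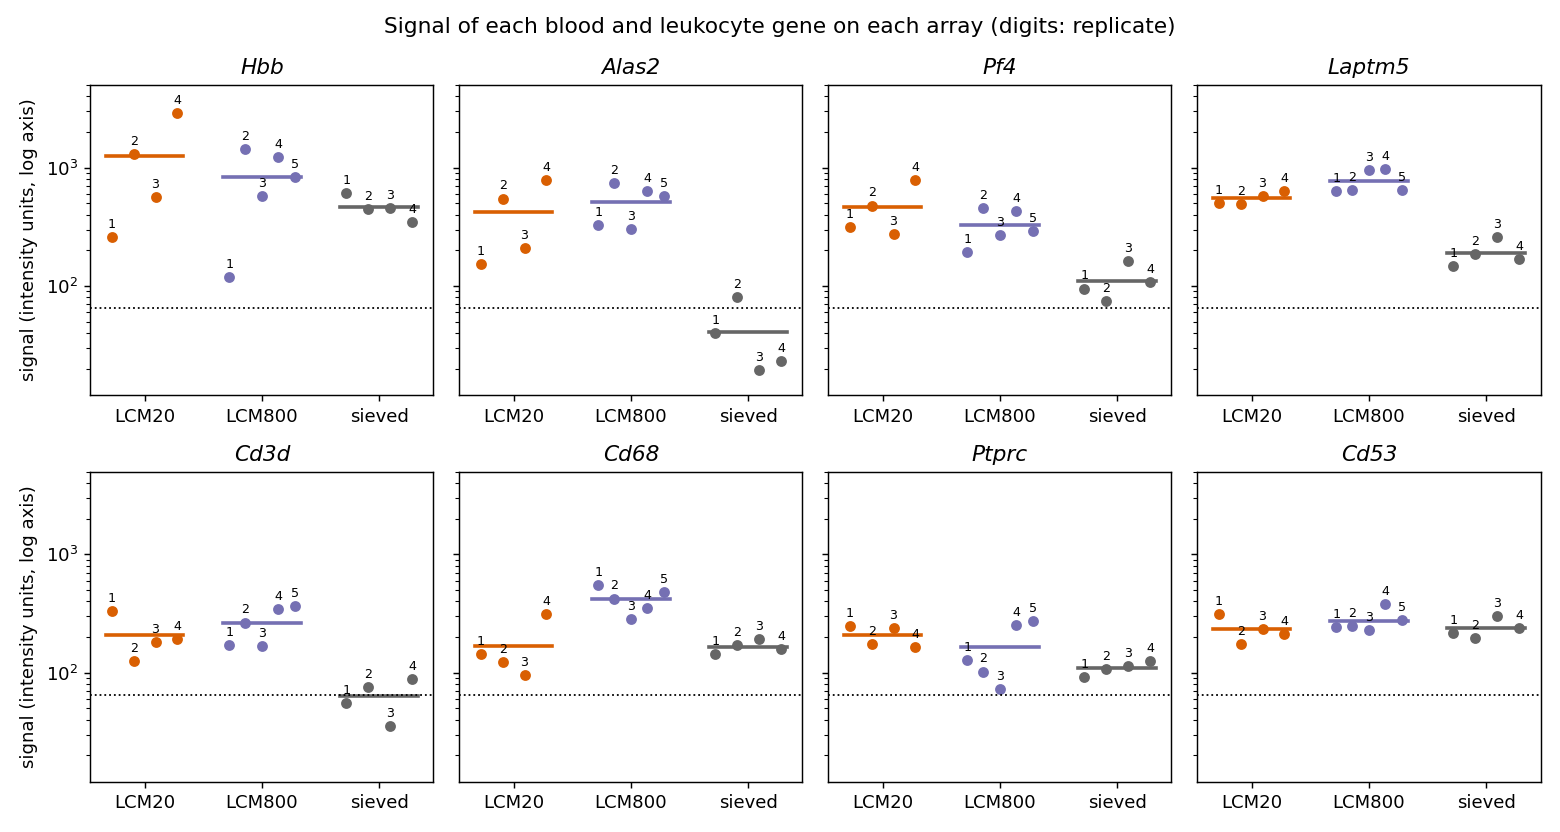
Signal of each gene on each array, in intensity units on a log axis, with LCM20, LCM800 and sieved arrays from left to right, the replicate number above each point, group means as bars and the 20th percentile of all signals (65.3) as a dotted line. Alas2, Pf4, Cd3d and Laptm5 show LCM arrays above all sieved arrays, Hbb spreads between 120 and 2882 units in LCM arrays, and Cd53 overlaps throughout.

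Without overlap between groups, 5 of the 8 genes had every LCM20 array above every sieved array (Alas2, Pf4, Laptm5, Cd3d and Ptprc), as did 26.5% of all genes. Likewise 5 had every LCM800 array above every sieved array (Alas2, Pf4, Laptm5, Cd3d and Cd68), as did 27.1% of all genes. With only LCM800 replicates 4 and 5 kept, Ptprc was also called, at 0.92 ± 0.23 (limma adjusted p = 0.00610), against -0.085 ± 0.23 with only LCM800 replicates 1, 2 and 3 (limma adjusted p = 0.768). Under both of these choices Alas2, Pf4, Laptm5, Cd3d and Cd68 were called in LCM800, between 1.03 for Cd68 and 2.68 for Alas2. Hbb was at 1.05 ± 0.61 with LCM800 replicates 4 and 5 (limma adjusted p = 0.173) and at 0.11 ± 0.66 with replicates 1, 2 and 3 (limma adjusted p = 0.897).

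Set against each other, the microdissected groups differed in none of the 8 genes by limma at an adjusted p under 0.05, where 0.136% of all genes were called. The smallest unadjusted p of the 8 genes were those of Cd68 and Laptm5, both with lower signals in LCM20. How many of all genes had an unadjusted p as small was not counted. For Cd68, LCM20 minus LCM800 was -1.10 ± 0.25 (limma adjusted p = 0.0748, unadjusted p = 0.000378). This difference passed without LCM20 replicate 4, at -1.36 (limma adjusted p = 0.0246), without LCM800 replicate 4, at -1.15 (limma adjusted p = 0.0323), without LCM800 replicates 4 and 5, at -1.09 (limma adjusted p = 0.0136), and with arrays weighted, at -1.02 (limma adjusted p = 0.0288). Under these choices, in the same order, 0.108%, 4.52%, 23.2% and 7.73% of all probe sets were called, against 0.153% in the main fit. Over all 20 alternatives the adjusted p of the Cd68 difference ran between 0.0136 and 0.255. For Laptm5 the difference was -0.43 ± 0.20 (limma adjusted p = 0.277, unadjusted p = 0.0448). Ptprc differed by 0.32 over all arrays (limma adjusted p = 0.540), and by 0.72 without LCM800 replicates 4 and 5 (limma adjusted p = 0.0331), a choice under which 2 of the 8 genes and 23.2% of all probe sets were called. The other genes differed by -0.39 to 0.39.

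The 8 genes also varied from array to array within a group, which was described by taking each value relative to its group mean over the 13 arrays. Hbb and Alas2 deviated together (Pearson r = 0.85, Spearman rho = 0.87), as did Hbb and Pf4 (r = 0.85, rho = 0.86) and Alas2 and Pf4 (r = 0.72, rho = 0.73). LCM20 replicate 4 was highest of its group for all 3 genes, and LCM800 replicate 2 was highest of its group. These points share arrays, their scaling and their amplification, so r is a description. Over the 9 LCM arrays r was 0.89 for Hbb with Alas2, 0.92 for Hbb with Pf4 and 0.91 for Alas2 with Pf4. Without LCM800 replicate 1 and LCM20 replicate 4, the arrays farthest out for Hbb, r was 0.86 with Alas2 and 0.74 with Pf4 over 11 arrays. With LCM800 replicates 1 to 3 and 4 to 5 centred apart, these values were 0.84 for Hbb with Alas2 and 0.85 for Hbb with Pf4.

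The genes Cd3d, Ptprc and Cd53 also deviated together, with r = 0.70 for Cd3d with Ptprc, 0.64 for Ptprc with Cd53 and 0.57 for Cd3d with Cd53 over 13 arrays. With the LCM800 arrays centred apart in their subsets these were 0.45, 0.49 and 0.39, so part of the likeness lay between LCM800 replicates 1 to 3 and replicates 4 to 5. Over the 9 LCM arrays r was 0.75 for Cd3d with Ptprc, 0.70 for Ptprc with Cd53 and 0.85 for Cd3d with Cd53. Hbb showed little likeness with these genes, with r = 0.03 with Cd3d, -0.07 with Ptprc and -0.14 with Cd53. With the subsets centred apart, Hbb with Ptprc was at -0.76. Laptm5 with Ptprc was at r = -0.04, although both mark leukocytes in general, and Cd68 with Laptm5 was at -0.10.

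**Figure D3:**
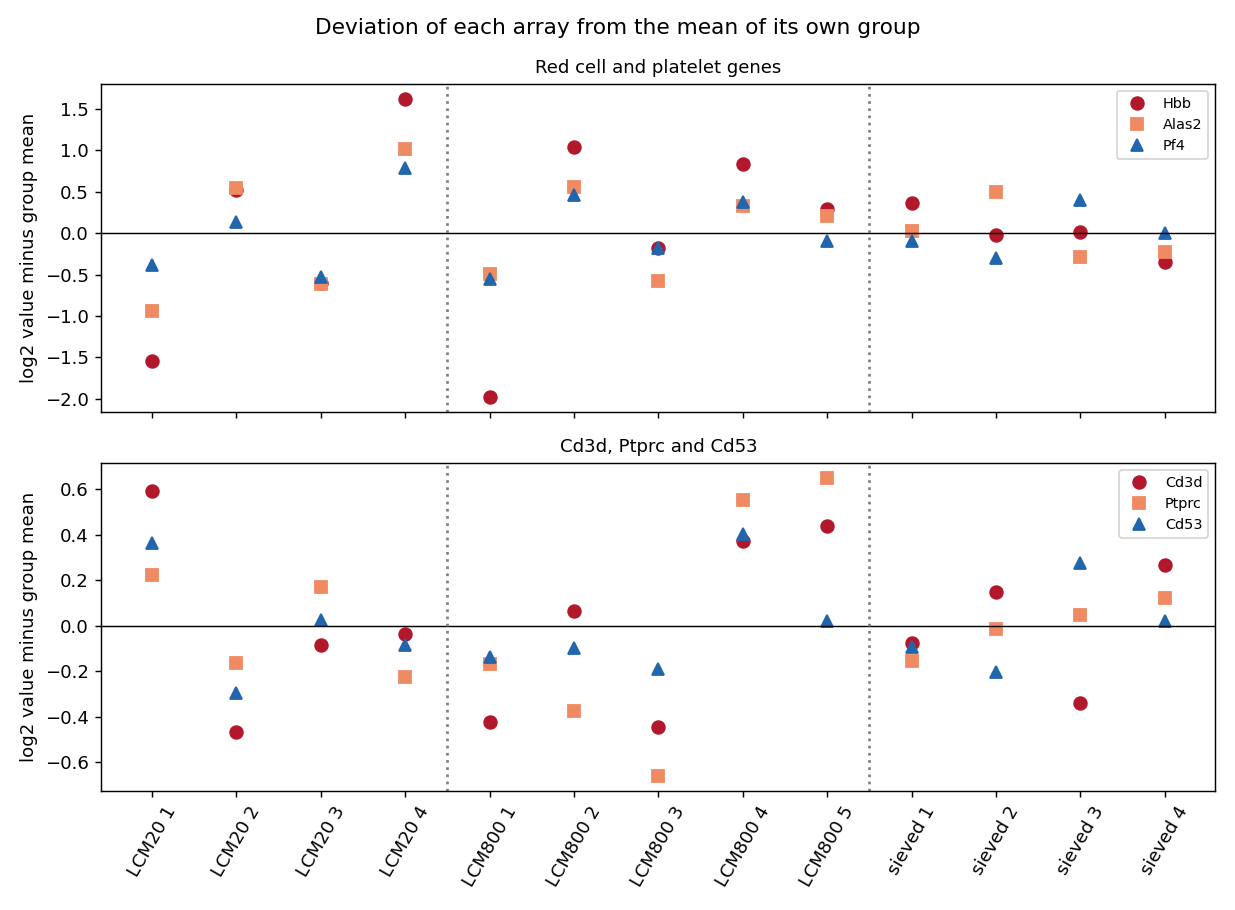
Deviation of each array from the mean of its group, as log2(signal + 65.3) minus that mean, for the red cell and platelet genes above and for Cd3d, Ptprc and Cd53 below; dotted lines divide LCM20, LCM800 and sieved arrays. Hbb, Alas2 and Pf4 lie on the same side of 0 on most LCM arrays, with LCM20 replicate 4 high and LCM800 replicate 1 low, and the vertical scales of the panels differ.

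Among all 8080 other genes tested, those most like Hbb by this measure were Rnf122 (r = 0.92), Kank1 (r = 0.90) and Eef1g (r = 0.88), with Alas2 in place 4 and Pf4 in place 5. Those most like Alas2 were Hbb (r = 0.85), Adamts9 (r = 0.82) and Spp2 (r = 0.81). Those most like Ptprc were Slc38a1 (r = 0.96), Prkar2a (r = 0.95) and Il12b (r = 0.94), and those most like Cd68 were Gorasp2 (r = 0.90), Polr2c (r = 0.88) and Atp6v1e1 (r = 0.84). Places in this order among so many genes were not tested.

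Other genes of the same cell types gave a fuller picture of each. A list of red cell genes, Hbb and Alas2 among them, had 16 members on the array and 8 tested. In LCM20 4 were called higher and 1 lower, and in LCM800 5 higher and 1 lower. These counts, and those of the lists that follow, stand beside 27.0% higher and 18.5% lower of all tested genes in LCM20, and 32.3% higher and 19.8% lower in LCM800. Hba-a3, an α globin gene, gave 1119, 1552, 1605 and 1403 units in LCM20 and 1296, 2244, 1081, 1925 and 1270 in LCM800, against 376, 350.2, 247 and 292 in sieved arrays. It lay above the sieved range on every LCM array, unlike Hbb, and was higher by 1.96 ± 0.24 in LCM20 (limma adjusted p = 1.69e-05) and by 2.05 ± 0.23 in LCM800 (limma adjusted p = 5.06e-06). Its deviations went with those of Hbb at r = 0.53 and with those of Alas2 at r = 0.57 over 13 arrays.

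Slc4a1 encodes band 3, the anion exchanger of the red cell membrane, and is also made in intercalated cells of the collecting duct. It gave 180, 88.2, 269 and 116 units in LCM20 and 352, 385, 366, 357 and 260.4 in LCM800, against 1619, 1784, 345 and 1054 in sieved arrays. All LCM20 arrays lay below the sieved range, and sieved replicate 3 lay within the LCM800 range. Slc4a1 was lower in LCM20, at -2.32 ± 0.38 (limma adjusted p = 0.000169), and in LCM800, at -1.43 ± 0.36 (limma adjusted p = 0.00374). Its other probe set was at -1.35 in LCM20 (limma adjusted p = 0.0153) and at -1.12 in LCM800 (limma adjusted p = 0.0267). Without sieved replicate 3 it was at -2.79 in LCM20 and at -1.90 in LCM800. It was the single red cell gene called lower.

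For platelet genes, 12 were on the array and 7 were tested; 4 were called higher in LCM20, 5 in LCM800 and none lower in either. Besides Pf4, the largest change was that of Gng11, a G protein γ subunit found in platelets and also in endothelial cells. Gng11 gave 1030, 3143, 2751 and 1955 units in LCM20 and 1028, 1692, 2009.5, 735 and 948 in LCM800, against 146, 111, 864.5 and 132 in sieved arrays. Sieved replicate 3 stood far above the other sieved arrays and inside the LCM800 range. Gng11 was higher by 2.88 ± 0.48 in LCM20 (limma adjusted p = 0.000213) and by 2.14 ± 0.46 in LCM800 (limma adjusted p = 0.00123), and without sieved replicate 3 by 3.44 in LCM20 and 2.70 in LCM800.

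Of T and natural killer cell genes, 26 were on the array and 17 were tested. Of these, 13 were higher in LCM20, 14 higher in LCM800 and none lower in either. Cd4 was tested but not called, at -0.03 in LCM20 and 0.15 in LCM800. Cd3e and Cd8a did not pass the filter. With no filter neither was called, with Cd3e at 0.12 in LCM20 and -0.01 in LCM800, and Cd8a at -0.30 and -0.22. Prf1, the pore protein perforin of cytotoxic cells, gave 687, 382, 508 and 897 units in LCM20 and 1153, 1528, 443, 483 and 408 in LCM800, against 82.0, 31.4, 169 and 91.5 in sieved arrays. It was above the sieved range on all LCM arrays, by 2.12 ± 0.39 in LCM20 (limma adjusted p = 0.000474) and by 2.33 ± 0.37 in LCM800 (limma adjusted p = 0.000105). Cd3g encodes the γ chain of the CD3 complex. On the sieved arrays it gave 123, 126, 133 and 150 units. It gave 560, 419, 354 and 383 units in LCM20 and 657, 578, 311, 584 and 543 in LCM800. It was higher by 1.30 ± 0.22 in LCM20 (limma adjusted p = 0.000199) and by 1.57 ± 0.21 in LCM800 (limma adjusted p = 2.03e-05), without overlap. The 2 B cell genes on the array did not pass the filter, and their summed signal was 17.2 to 54.9 in LCM20, 20.8 to 49.7 in LCM800 and 17.7 to 34.2 in sieved arrays.

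Macrophage and dendritic cell genes were mixed. Of 24 on the array 18 were tested, of which 7 were higher and 1 lower in LCM20, and 9 higher and 1 lower in LCM800. Cd86, a ligand that stimulates T cells, was higher by 1.41 ± 0.29 in LCM20 (limma adjusted p = 0.00124) and by 1.55 ± 0.28 in LCM800 (limma adjusted p = 0.000308). Ctss, the lysosomal protease cathepsin S, was higher by 1.15 ± 0.27 in LCM20 (limma adjusted p = 0.00308) and by 1.46 ± 0.26 in LCM800 (limma adjusted p = 0.000278). Cyba, a subunit of the NADPH oxidase that is also made outside leukocytes, was the lower gene, at -2.17 ± 0.27 in LCM20 (limma adjusted p = 1.68e-05) and at -2.14 ± 0.25 in LCM800 (limma adjusted p = 8.44e-06).

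Granulocyte and mast cell genes numbered 12 on the array and 5 tested, with 2 higher in LCM20, 4 in LCM800 and none lower. Cpa3, a mast cell protease gene, was higher by 0.71 ± 0.23 in LCM20 (limma adjusted p = 0.0179) and by 0.80 ± 0.21 in LCM800 (limma adjusted p = 0.00566). Prg2, the gene of eosinophil major basic protein, was higher by 0.70 ± 0.22 in LCM20 (limma adjusted p = 0.0174) and by 0.79 ± 0.21 in LCM800 (limma adjusted p = 0.00522). Without LCM20 replicate 3 neither Cpa3 nor Prg2 passed in LCM20, at 0.55 each (limma adjusted p = 0.0607 and 0.0535). Cxcr2, a neutrophil chemokine receptor gene, was at 0.48 ± 0.27 in LCM20 (limma adjusted p = 0.158). It was higher by 1.05 ± 0.26 in LCM800 (limma adjusted p = 0.00326), but at 0.56 with only LCM800 replicates 4 and 5 (limma adjusted p = 0.105).

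Of the genes of leukocytes in general, 26 were on the array and 18 were tested, with 10 higher in LCM20, 8 higher in LCM800 and none lower. Spn, which encodes the sialoglycoprotein CD43, gave 1294, 1208.5, 626 and 1458 units in LCM20 and 686, 943, 809, 1751 and 1621 in LCM800, against 179, 131, 139 and 162 in sieved arrays. It was above the sieved range on all LCM arrays, by 2.42 ± 0.30 in LCM20 (limma adjusted p = 1.87e-05) and by 2.41 ± 0.29 in LCM800 (limma adjusted p = 8.82e-06), where Ptprc and Cd53 were not called. Gmfg, an actin regulator of blood cells, was higher by 2.13 ± 0.30 in LCM20 (limma adjusted p = 5.74e-05) and by 1.61 ± 0.29 in LCM800 (limma adjusted p = 0.000292). Lyn, a Src family kinase gene named here after its values were seen, was counted as higher by its brightest probe set, at 1.31 in LCM20 and 1.45 in LCM800, while its other probe set was at 0.01 in LCM20 (limma adjusted p = 0.978) and at -0.22 in LCM800 (limma adjusted p = 0.578).

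Since the filter keeps a dim gene more readily where it is high in some group, the lists were also counted with no filter, where 22.0% of all 10411 genes were higher and 16.4% lower in LCM20, and 28.1% higher and 17.5% lower in LCM800. The medians over all genes were then 0.14 in LCM20 and 0.21 in LCM800. Of the 26 T and natural killer cell genes, 13 were higher in LCM20 and 15 in LCM800, with medians of 0.55 and 0.74. Of the 16 red cell genes 4 were higher and 1 lower in LCM20, near the share of all genes, and 8 higher and 1 lower in LCM800, with medians of 0.27 and 0.42. Of the 12 platelet genes 4 were higher in LCM20 and 5 in LCM800, with medians of 0.50 and 0.74. Of the 26 genes of leukocytes in general 10 were higher and 0 lower in LCM20, and 9 higher and 1 lower in LCM800. Of the 24 macrophage and dendritic cell genes 8 were higher and 2 lower in both, with medians of 0.09 in LCM20 and 0.29 in LCM800, close to those of all genes. The 2 lower macrophage and dendritic cell genes were Cyba and, not past the filter, C1qb. C1qb was at -0.66 in LCM20 (limma adjusted p = 0.0128) and at -0.47 in LCM800 (limma adjusted p = 0.0460). Of the 12 granulocyte and mast cell genes 3 were higher in LCM20 and 7 in LCM800, and no B cell gene was called. No gene of any of these lists was called between LCM20 and LCM800.

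**Figure D4:**
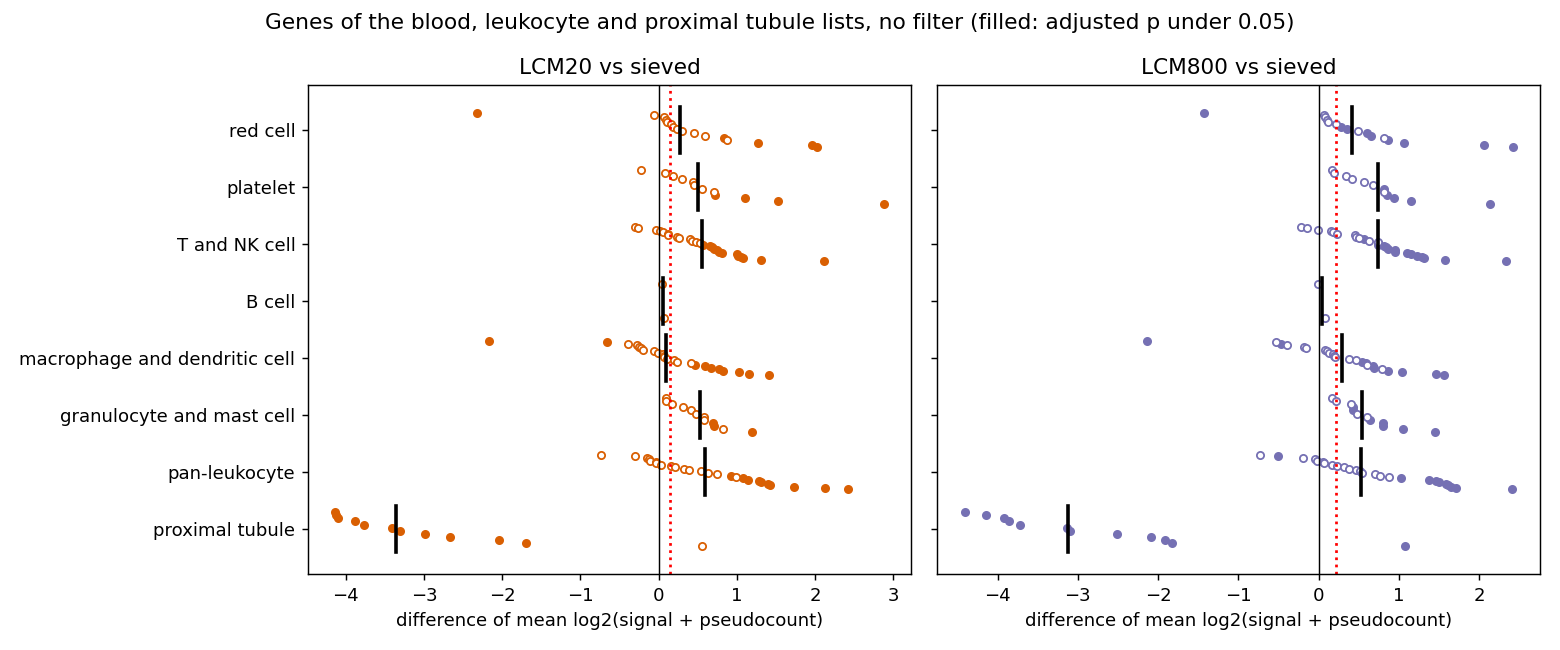
Change of each gene of the blood, leukocyte and proximal tubule lists with no filter, as the difference of mean log2(signal + 65.3) between LCM20 and sieved (left) and between LCM800 and sieved (right). Filled points had an adjusted p under 0.05, black bars are list medians and the red dotted line is the median of all 10411 genes, at 0.14 on the left and 0.21 on the right; the T and natural killer cell medians lie at 0.55 and 0.74, and the proximal tubule medians at -3.35 and -3.12.

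Markers of the glomerular cells themselves were counted in the same way. Of 6 podocyte genes 3 were higher and 1 lower in LCM20, and 3 higher and 2 lower in LCM800. Of 6 endothelial genes 4 were higher in LCM20 and 3 in LCM800, and of 6 mesangial genes 2 were higher in LCM20 and 4 in LCM800, with none lower. In LCM20 the median change was 0.75 for podocyte, 1.45 for endothelial and 0.37 for mesangial genes, beside 0.96 for the 8 blood and leukocyte genes. In LCM800 it was 0.83 for podocyte, 0.98 for endothelial and 0.98 for mesangial genes, beside 1.10 for the 8 genes. Sieved replicate 3 had summed podocyte and endothelial signals of 44184 and 14975, inside the LCM800 ranges of 38157 to 68817 and 12590 to 16000. The other sieved arrays gave 17666 to 23743 and 4072 to 5614. The counts above use the brightest probe set of each gene, and other probe sets disagreed for some genes. The other probe set of the endothelial gene Egfl7 was called higher, as was its brightest. It was at 1.09 in LCM20 (limma adjusted p = 0.00561) and at 1.18 in LCM800 (limma adjusted p = 0.00184). All 5 other podocyte probe sets tested, of Nphs1, Wt1, Synpo and Podxl, were below 0 in both comparisons. That of Wt1 was called lower, at -1.38 in LCM20 (limma adjusted p = 0.00109) and at -1.44 in LCM800 (limma adjusted p = 0.000439). Both of those of Podxl, whose brightest probe set was also below 0, were called lower too. They were at -1.04 and -1.33 in LCM20 (limma adjusted p = 0.0141 and 0.00146). In LCM800 they were at -0.95 and -1.47 (limma adjusted p = 0.0149 and 0.000352). Those of Nphs1 and Synpo were not called. The other probe set of the endothelial gene Flt1 was at -0.39 in LCM20 (limma adjusted p = 0.248) and at -0.33 in LCM800 (limma adjusted p = 0.284), against 1.58 in LCM20 and 1.47 in LCM800 for the brightest.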

How the data were processed

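The deposited values are 1-colour signal intensities of 13 rat arrays, made by the authors with MAS5 per the submitters' processing notes. Detection calls were not used here. The mean of each array with 2% left out at each end was 500.1, and the scaling was kept. All tests used log2(signal + 65.3). The 57 control probe sets and the lowest 30% by mean log2 over all arrays were left out. The 3 groups were fitted together without covariates in limma 3.58.1 (run in R 4.3.3; moderated with a trend on intensity), with two-sided tests and Benjamini-Hochberg adjustment over 11106 probe sets. Symbols came from the platform annotation: 12783 probe sets had 1 symbol, 312 several and 2771 none. The brightest probe set with 1 symbol stood for a gene. The fit was tested on simulated data with equal spread in every group. These lack the LCM800 subsets, so their effect on the fit was not tested.

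Named were all 8 genes, the largest changes in each direction past the test in each of 7 blood and leukocyte lists (up to 2 per comparison), and the 3 genes most like Hbb, Alas2, Ptprc and Cd68. Lyn, Cd4, Cd3e, Cd8a, C1qb, Pck1 and the single podocyte and endothelial genes were named outside this rule, with the results known. Genes and lists were chosen from general knowledge, with earlier results of these data known. Alternatives were the scaling, pseudocount, filter, trend, array weights, a replicate block, 2-group fits and left-out arrays.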

Additional observations from a re-analysis of the deposited data

How the results depend on the processing

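Between LCM20 and sieved, 5035 probe sets were called (4143 to 4957 with single replicates left out), and 5764 between LCM800 and sieved (4941 to 5723); 4 and 5 of the 8 genes were called in every such case. With the lowest 60% left out, only Hbb and Laptm5 were tested, so 1 of the genes was called in each comparison, among 3260 and 3503 probe sets. Between LCM20 and LCM800, 17 probe sets and 0 of the genes were called. The probe sets numbered 10 without a pseudocount and 10 with no filter, 0 with a replicate block and 0 in the 2-group fit, 859 with array weights (1 of the genes, Cd68), 2581 without LCM800 replicates 4 and 5 (2 genes, Cd68 and Ptprc), and 0 to 502 with single replicates left out (0 to 1 genes); the cause was not tested. Deviations of same-numbered arrays correlated at -0.24 to 0.23. With so few arrays, prepared in different ways, this cannot settle whether equal numbers mark the same rat. The replicate block gave 4874, 5452 and 0 called probe sets and 4, 5 and 0 of the genes.

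Of the alternatives for single genes, 875 kept direction and call, 3 lost the call, 8 gained it and 11 turned direction, none of the last for a called change. In LCM800 against sieved, Ptprc was at -0.085 without LCM800 replicates 4 and 5. In LCM20 against sieved, Cd68 lay between -0.32 and 0.095 with single replicates left out, above 0 without LCM20 replicate 2 (0.016) or 3. Cd53 was at 0.089 with array weights and lay between -0.15 and 0.066 with single replicates left out, above 0 without sieved replicate 3 (0.059) or LCM20 replicate 2. In LCM20 against LCM800, Hbb was at -0.17 without LCM800 replicates 1, 2 and 3 and lay between -0.15 and 0.91 with single replicates left out, below 0 without LCM800 replicate 1 (-0.10) or LCM20 replicate 4. There Cd3d was at 0.0038 without LCM800 replicates 4 and 5, and Ptprc at -0.29 without LCM800 replicates 1, 2 and 3. Setting array medians equal moved the median over all probe sets between LCM800 and sieved to 0.12, against 0.22, and turned none of the 8 genes. The pseudocount set the size of dim changes but ended no call among the 8 genes: without one and with 4 times it, Alas2 was at 3.31 and 1.09 in LCM20 and at 3.80 and 1.33 in LCM800, Cd3d at 1.70 and 0.52 in LCM20 and at 2.05 and 0.67 in LCM800, and Pf4 at 2.01 and 0.92 in LCM20 and at 1.58 and 0.66 in LCM800.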
